A study of Mus musculus with 2 samples.

Results

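The genes described here are 10 members of the BCL-2 family, taken from a fixed list out of 32285 genes in each of 2 single-cell RNA sequencing libraries: the survival genes Bcl2, Mcl1, Bcl2l1, Bcl2a1a, Bcl2a1b and Bcl2a1d, the pore-forming effectors Bax and Bak1, and the BH3-only genes Bcl2l11 and Bbc3. They were read in all 8 immune cell types that could be gated by marker genes. The Bcl2a1 copies were compared between the library of mice given lenvatinib and palbociclib and that of mice given lenvatinib alone. With both drugs they were more than 2-fold higher in NK and CD8 T cells. In neutrophils, monocytes/macrophages (Mo/MΦ) and dendritic cells they were 2.56-fold to 2.91-fold lower with both drugs. The median gene of every type was itself lower there, most in neutrophils (log2 -0.50), and is not subtracted from these values. Mcl1 was within 1.5-fold between the libraries in all 8 types, and Bcl2 was within 1.5-fold in CD8 T, other T and NK cells, the types where it was highest.

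The cells came from liver tumors of male wild-type C57BL/6 J mice, aged 6 to 8 weeks at injection, in which plasmids for human MYC, a CRISPR guide against Trp53 and the sleeping beauty transposase were delivered by hydrodynamic tail-vein injection (Trp53KO/MYCOE). This route is known to deliver plasmids mainly to hepatocytes, and the immune cells are the wild-type host's own. Both groups had lenvatinib, a multikinase inhibitor of VEGF and FGF receptors, at 30 mg/kg for 25 days starting 12 days after injection, until tumors grew under the drug. One library then came from mice kept on lenvatinib and the other (combo) from mice that also had palbociclib, an inhibitor of the cell cycle kinases CDK4 and CDK6, at 100 mg/kg. Live CD45+ cells were sorted, CD45 being the surface protein common to white blood cells. There was 1 library per treatment, the number of mice in each is not given in the sources used here, and treatment and library cannot be told apart. No value below therefore has a test, and each interval covers counting error only.

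BCL-2 family proteins decide whether the outer mitochondrial membrane is breached during apoptosis. BAX and BAK open that membrane when activated, the survival proteins BCL-2, MCL-1, BCL-XL (the product of Bcl2l1) and A1 (the product of the Bcl2a1 genes) hold them and their activators in check, and BH3-only proteins such as BIM (Bcl2l11) and PUMA (Bbc3) bind and neutralize the survival proteins. White blood cells are known for leaning on different survival members: resting T cells on BCL-2, neutrophils on the short-lived MCL-1 and on A1, and activated lymphocytes on BCL-XL and A1.

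A1 is encoded in the mouse by several near-identical copies, and 3 of them were counted separately. In the GENCODE M21 annotation (GRCm38, the same assembly as mm10) they lie on chromosome 9: Bcl2a1d at chr9:88723285-88731914 on the minus strand, Bcl2a1a at chr9:88956900-88962419 and Bcl2a1b at chr9:89199209-89207827, both on the plus strand. Their annotated transcripts were 98.2% (Bcl2a1a and Bcl2a1b), 98.8% (Bcl2a1a and Bcl2a1d) and 99.1% (Bcl2a1b and Bcl2a1d) identical over the aligned bases. The coding part of the last exon, 96 bases close to the end where a 3′ library is read, shows how little separates the copies. It lies at chr9:88962172-88962267 for Bcl2a1a, chr9:89207582-89207677 for Bcl2a1b and chr9:88723437-88723532 for Bcl2a1d, and the single capital marks the 1 position that differs:
Bcl2a1a: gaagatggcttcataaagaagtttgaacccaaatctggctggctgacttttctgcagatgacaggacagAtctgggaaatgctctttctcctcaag
Bcl2a1b: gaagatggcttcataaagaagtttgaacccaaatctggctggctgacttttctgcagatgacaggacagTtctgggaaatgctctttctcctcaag
Bcl2a1d: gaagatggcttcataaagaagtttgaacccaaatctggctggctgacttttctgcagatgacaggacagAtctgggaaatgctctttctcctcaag
With windows of 90 bases, an assumed read length, 55.3% of the windows within the last exon were particular to Bcl2a1a, 44.6% to Bcl2a1b and 1.26% to Bcl2a1d. Cell Ranger counts a read only where it maps to 1 gene, so reads from the other windows are lost, the level of a single copy is uncertain, the copies' levels cannot be ranked against each other, and their sum is given beside them. A ratio of 1 copy between the libraries compares the same windows in both.

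The stretch before the transcription start was as alike. The RefSeq promoter windows (GRCm38.p6, which held all 10 genes) gave the following bases before the annotated starts, 5′ to 3′, at chr9:88956714-88956855 for Bcl2a1a, chr9:89199023-89199164 for Bcl2a1b and chr9:88731915-88732050 for Bcl2a1d. Bcl2a1b and Bcl2a1d had ratios between the libraries of the same sign in 7 of the 8 types. The part of this stretch in that was not tested. GAGGAAGT is the kind of purine-rich sequence bound by the myeloid and B-cell factor PU.1. The capitals mark it, with any GAGGAA repeat directly before it:
Bcl2a1a: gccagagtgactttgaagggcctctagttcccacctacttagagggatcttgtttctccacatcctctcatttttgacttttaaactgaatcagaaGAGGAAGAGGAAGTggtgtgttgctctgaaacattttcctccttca
Bcl2a1b: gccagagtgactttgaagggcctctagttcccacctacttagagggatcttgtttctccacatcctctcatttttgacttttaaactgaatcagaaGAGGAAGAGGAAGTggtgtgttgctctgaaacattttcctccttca
Bcl2a1d: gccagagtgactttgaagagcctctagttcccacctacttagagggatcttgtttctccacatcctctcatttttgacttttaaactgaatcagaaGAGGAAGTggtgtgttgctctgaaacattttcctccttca
Over these bases Bcl2a1a and Bcl2a1b were identical, and Bcl2a1d differed from both at 1 position and lacked 6 bases, a copy of the GAGGAA repeat. GAGGAAGT, searched on both strands, was in 3 of the 3 Bcl2a1 windows and in 3.20% of all 32851 RefSeq windows of 300 bases. The NF-κB consensus was in none of the 3 windows and in 8.46% of all windows. The 3 windows hold near-identical copies of 1 stretch, so they count as 1 observation beside these shares and show no enrichment. These are matches of letters in a short window and show nothing about binding.

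The lenvatinib library held 14509 cell barcodes and the combo library 11989, with 49 barcodes in common, and 14201 and 11613 cells passed the filter of at most 6000 genes and 25% mitochondrial counts. A cell was gated where it had a count (UMI, a unique molecule) of exactly 1 of Cd3e, Ncr1, Cd79a, Csf1r, Csf3r and Flt3, which placed 65.3% of cells under lenvatinib and 64.4% under combo. T cells were split into CD8 T (Cd8b1), Foxp3 T (regulatory T-cell factor Foxp3) and other T cells. In NK, B, neutrophil and Foxp3 T cells all markers outside the gates were highest in their own type in both libraries, in dendritic cells and in Mo/MΦ under lenvatinib all but 1 were, and in CD8 T cells Trac and Cd3d came after Foxp3 T cells. Among the markers of other T cells Trdc was highest there and Cd4 came after Foxp3 T cells, so this gate mixes T cells of several kinds. Foxp3 T cells were 323 under lenvatinib but only 41 under combo, which makes their combo values coarse. Neutrophils were 681 and 1468, with a median of 2516 and 4744 UMIs per cell. Levels are CPM, the UMIs of a gene scaled to 1000000 UMIs of the gated cells. A 3′ count is 1 per molecule and is not divided by transcript length. In the annotation Bcl2, Bax and Bcl2a1b overlap other genes on the same strand, predicted transcripts or a microRNA, and the remaining members do not.

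**Figure D1:**
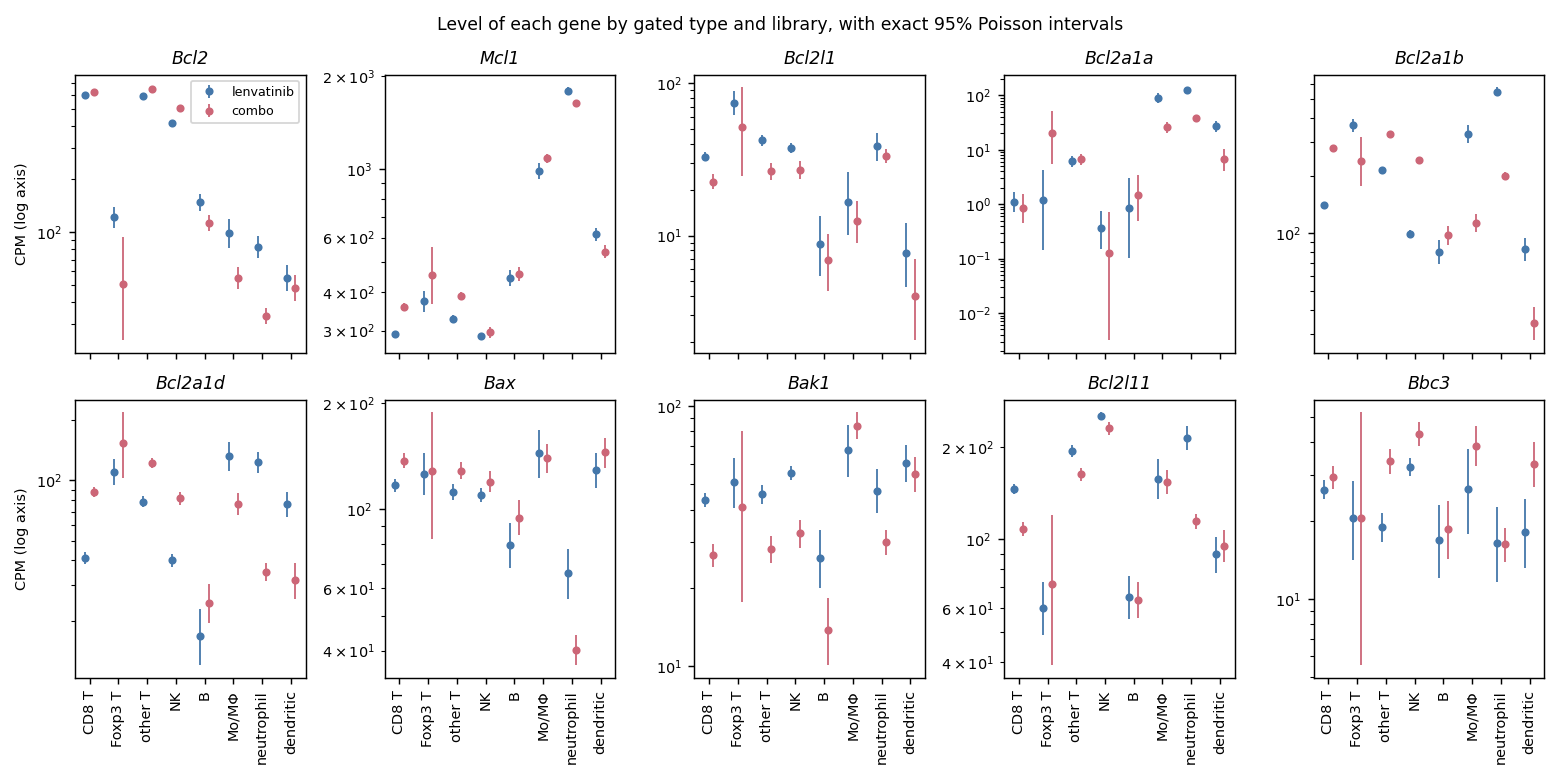
Level of each gene (CPM, log axis) in the 8 gated types under lenvatinib (blue) and combo (red), with exact 95% Poisson intervals as bars. Bcl2 was highest in CD8 T, other T and NK cells, Mcl1 in neutrophils, and Bcl2a1a was under 10 CPM in lymphocytes except in Foxp3 T cells under combo.

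A gene was compared between the libraries where its mean level reached 20 CPM and its UMIs reached 20 in all, which held for 68 of the 80 pairs of a gene and a type. Of these, 27 were at least 1.5-fold apart, 8 higher and 19 lower under combo. The median gene of a type was itself lower under combo, by 0.08 to 0.50 on the log2 scale. The gap was widest in neutrophils, where S100a8 alone took 58549 CPM under lenvatinib and 125991 under combo, and in B cells, where the antibody gene Igkc took 49524 and 115713. The part of these genes in the gap was not tested. After subtracting that median, 24 pairs were at least 1.5-fold apart, 12 higher and 12 lower. The share of all genes past 1.5-fold after the same subtraction ran from 8.52% in CD8 T cells to 34.9% in Foxp3 T cells. The counts and shares by type that follow are without the subtraction unless it is named. In neutrophils 7 of 9 members were past 1.5-fold, all lower, against 48.0% of all genes compared, with a members' median of -0.89 and an all-gene median of -0.50. The 3 Bcl2a1 copies, near-identical in sequence but counted as separate members here and below, were all among these 7. In Mo/MΦ 4 of 9 were past, all lower (23.5% of genes, members' median -0.05, all genes -0.13). In dendritic cells 3 of 8 were past, 1 higher and 2 lower (15.3% of genes, medians -0.16 and -0.08). In other T cells 5 of 9 were past, 3 higher and 2 lower (13.8% of genes, medians 0.20 and -0.18). In CD8 T cells 3 of 9 were past, 2 higher and 1 lower (11.5% of genes, medians 0.16 and -0.15), and in NK cells the counts were also 3, 2 and 1 (11.8% of genes, medians 0.12 and -0.12). In Foxp3 T cells 2 of 9 were past, both lower (35.0% of genes, medians 0.00 and -0.08), and in B cells none of 6 (38.4% of genes, medians 0.15 and -0.41). Without the subtraction, the shares in Foxp3 T cells and B cells were thus under the background of all genes. With the median gene subtracted, Foxp3 T cells stayed under it, with 1 of 9 past against 34.9% of genes. B cells then lay above it, with 3 of 6 past against 20.3%. Before subtraction, 6 of the 8 pairs higher under combo were Bcl2a1 copies.

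**Figure D2:**
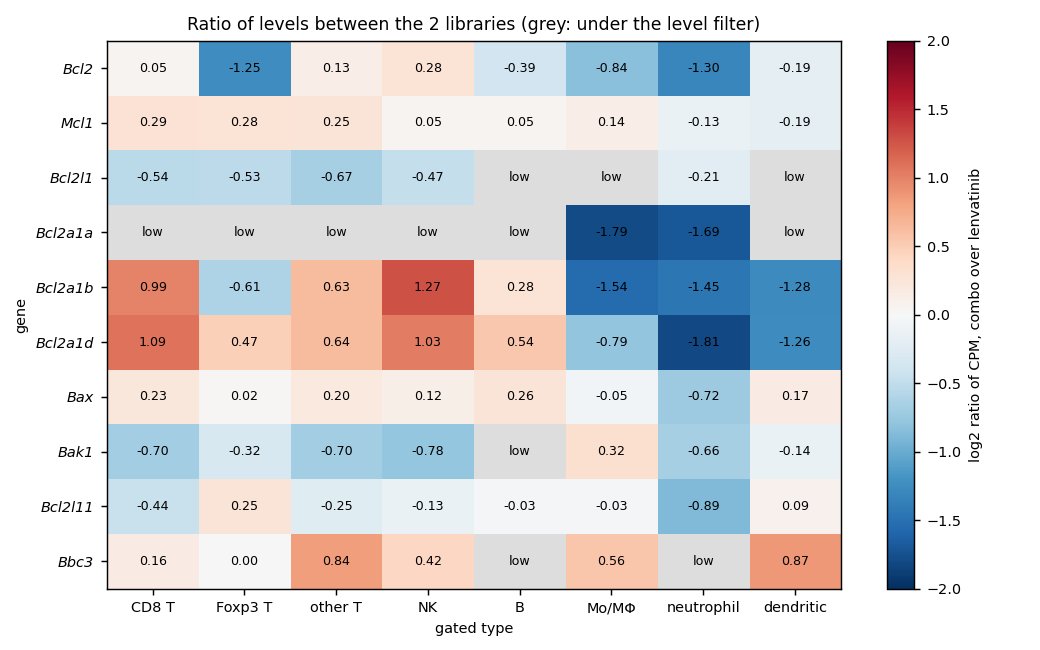
Log2 ratio of CPM, combo over lenvatinib, for each gene (rows) and gated type (columns); grey cells marked low were under the level filter. Bcl2a1b and Bcl2a1d were above 0 in CD8 T, other T and NK cells and below 0 in Mo/MΦ, neutrophils and dendritic cells.

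Bcl2, the founding survival gene (chr1:106538178-106714274, minus strand), was highest in CD8 T, other T and NK cells. It had 606 CPM in CD8 T cells under lenvatinib and 627 under combo, 597 and 651 in other T cells, and 419.7 and 509.9 in NK cells. B cells had 148 and 113 CPM. Foxp3 T cells, with 122 and 51.1 CPM, overlapped Mo/MΦ, at 98.5 and 55.2 CPM, within the intervals in both libraries. The lowest levels were 55.2 CPM in dendritic cells under lenvatinib and 33.5 CPM in neutrophils under combo. Under combo the highest type stood 19.5-fold over the lowest. CD8 T and other T cells overlapped within their intervals in both libraries, and NK cells lay apart below them. With each cell thinned to 2000 UMIs, Bcl2 had a UMI in 62.2% of CD8 T cells under lenvatinib and 64.3% under combo. In neutrophils, the type with the lowest level under combo, the shares were 8.13% and 4.46%.

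Between the libraries Bcl2 was at least 1.5-fold lower under combo in 3 types. In neutrophils it had 82.3 CPM under lenvatinib and 33.5 under combo, 2.46-fold lower (ratio 0.406, interval 0.340 to 0.487). In Foxp3 T cells it had 122 and 51.1 CPM (ratio 0.419, 0.198 to 0.787), the combo value resting on 10 UMIs. In Mo/MΦ it had 98.5 and 55.2 CPM (ratio 0.560, 0.440 to 0.715), and this difference was near 0 with a gate of 2 UMIs (log2 ratio -0.06). In B cells it was lower by less than 1.5-fold (ratio 0.765, 0.660 to 0.886), a log2 ratio of -0.39 that became 0.02 with the median gene subtracted, and in dendritic cells the interval included 1 (ratio 0.877, 0.690 to 1.12). In neutrophils without a UMI of Ptgs2, an inducible cyclooxygenase, Bcl2 had 129 CPM under lenvatinib and 38.0 under combo. In those with one it had 40.2 and 25.8 CPM, so the level was lower under combo on both sides of the split. Across the 16 values of 8 types and 2 libraries, the genes whose log levels were most like those of Bcl2 were Fasl (Pearson's r = 0.952), Tcf7 (0.945) and Pde3b (0.935).

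Mcl1, the survival gene of short-lived protein (chr3:95658788-95663176, plus strand), had the opposite order. It was highest in neutrophils, with 1784 CPM under lenvatinib and 1633 under combo, followed by Mo/MΦ at 985 and 1082 and dendritic cells at 614 and 539.6. It was lowest in NK cells, at 288 and 297 CPM, 6.20-fold and 5.50-fold under the neutrophils. The first 3 types lay apart from each other in both libraries. The log2 ratios between the libraries ran from -0.19 in dendritic cells to 0.29 in CD8 T cells, and none of the 8 passed 1.5-fold. In neutrophils the ratio of 0.915 became higher under combo once the median gene was subtracted (log2 0.38). After thinning, 91.9% of neutrophils under lenvatinib and 91.2% under combo had an Mcl1 UMI, against 44.6% and 41.1% of NK cells. The level followed the Ptgs2 split: neutrophils with a Ptgs2 UMI had 2417 and 2169 CPM and those without had 1084 and 1315. The genes most like Mcl1 were Lpcat2 (r = 0.975), Nlrp3 (0.974) and Il1b (0.971), over the same 16 values.

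Bcl2l1, the gene of BCL-XL (chr2:152780668-152831728, minus strand), was low throughout. Its highest level was in Foxp3 T cells, 73.8 CPM under lenvatinib and 51.1 under combo. Under combo their interval (24.5 to 93.9) overlapped that of neutrophils, the next type. The lowest level was in dendritic cells, 7.66 and 4.01 CPM. In the 5 types where it was compared its ratio was under 1, from log2 -0.67 in other T cells to -0.21 in neutrophils. The neutrophil value turned to 0.29 with the median gene subtracted. The interval of the ratio included 1 in neutrophils (0.682 to 1.10) and in Foxp3 T cells (0.324 to 1.32, on 10 UMIs under combo). Only other T cells passed 1.5-fold, with 42.1 and 26.4 CPM (ratio 0.628, 0.540 to 0.731), and with the median gene subtracted their log2 ratio was -0.49, under that fold. In CD8 T and NK cells the levels were 32.9 and 22.6 CPM, and 37.5 and 27.0 CPM, with intervals of the ratio that also lay under 1.

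The Bcl2a1 copies differed most between the libraries, and their direction depended on the cell type. In NK cells the 3 copies together had 140.1 CPM under lenvatinib and 322 under combo, 2.30-fold higher (interval 2.18 to 2.43). In CD8 T cells they had 182 and 366 CPM, 2.01-fold higher (1.93 to 2.10). In other T cells they had 298 and 460.3 CPM, 1.54-fold higher (1.48 to 1.61). Lymphocytes of these gates thus had more A1 message under combo. B cells went the same way by less, with 98.1 and 124 CPM (ratio 1.26, 1.07 to 1.49). In Foxp3 T cells the sum was 478 and 414 CPM, with a ratio of 0.865 whose interval of 0.679 to 1.09 includes 1.

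In neutrophils, Mo/MΦ and dendritic cells the sum was lower under combo. Neutrophils, the highest type under lenvatinib, had 798 CPM there and 274 under combo, 2.91-fold lower (ratio 0.344, 0.324 to 0.365). Mo/MΦ had 552 and 216 CPM, 2.56-fold lower (ratio 0.391, 0.351 to 0.436). Dendritic cells had 186 and 72.5 CPM, 2.57-fold lower (ratio 0.389, 0.330 to 0.458). The order of types was therefore different in the libraries: neutrophils led under lenvatinib, and other T cells, at 460.3 CPM, led under combo, overlapping with Foxp3 T cells. The dendritic gate was not split and may hold cells of several kinds. Its markers differed unevenly: Siglech had 1009 CPM under lenvatinib and 819.9 under combo, Xcr1 79.0 and 38.8, and Zbtb46 31.4 and 15.4. The part of the gate's make-up in its lower sum was not tested.

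**Figure D3:**
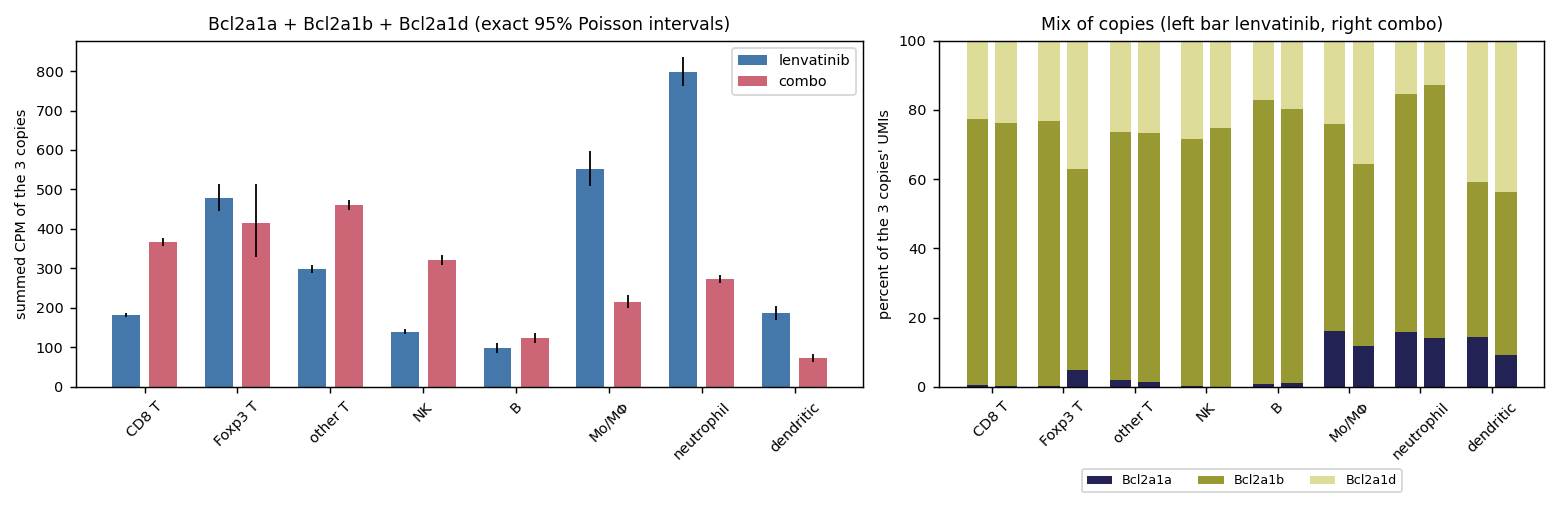
Left, summed CPM of Bcl2a1a, Bcl2a1b and Bcl2a1d by gated type under lenvatinib (blue) and combo (red), with exact 95% Poisson intervals. Right, percent of these UMIs given to each copy; Bcl2a1a made up 9.22% to 16.1% in Mo/MΦ, neutrophils and dendritic cells and at most 4.94% in lymphocytes.

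Outside Foxp3 T cells, each copy that could be compared had a ratio in the same direction as the sum. The copies are near-identical in sequence and are parts of that sum, so this is not separate support for it. Bcl2a1b had 99.8 CPM in NK cells under lenvatinib and 240.5 under combo (ratio 2.41, 2.26 to 2.57), and Bcl2a1d had 39.9 and 81.5 (ratio 2.04, 1.84 to 2.27). In CD8 T cells Bcl2a1b had 140.0 and 278 CPM and Bcl2a1d 41.1 and 87.6, log2 ratios of 0.99 and 1.09. In other T cells the log2 ratios were 0.63 and 0.64. In neutrophils Bcl2a1b had 549 CPM under lenvatinib and 200.2 under combo, Bcl2a1d had 123 and 35.1, and Bcl2a1a had 126 and 38.9, log2 ratios of -1.45, -1.81 and -1.69. With the neutrophil median subtracted these were -0.95, -1.31 and -1.19. In Mo/MΦ the log2 ratios were -1.54 for Bcl2a1b, -0.79 for Bcl2a1d and -1.79 for Bcl2a1a, and in dendritic cells -1.28 for Bcl2a1b and -1.26 for Bcl2a1d. Foxp3 T cells split the copies, with a log2 ratio of -0.61 for Bcl2a1b and 0.47 for Bcl2a1d, on 47 and 30 UMIs under combo. The interval of the Bcl2a1d ratio included 1 in Foxp3 T cells (0.910 to 2.05) and in B cells (0.986 to 2.18). In B cells, where the median gene was lower by 0.41, the log2 ratios of 0.28 and 0.54 became 0.69 and 0.95 once it was subtracted.

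After thinning to 2000 UMIs, the share of cells with a UMI of any copy differed in the same direction as the summed CPM in every type but Foxp3 T cells, where it was 46.6% under lenvatinib and 47.2% under combo with wide intervals (40.9 to 52.3 and 30.4 to 64.5). It was 18.8% of 2349 NK cells under lenvatinib (interval 17.2 to 20.4) and 32.5% of 969 under combo (29.6 to 35.6), and 28.2% and 43.6% of CD8 T cells. Without thinning the NK shares were 35.1% and 57.1%, at median depths of 6841 and 6787 UMIs. Among neutrophils it was 52.2% and 33.3%, and among Mo/MΦ 35.7% and 17.0%. No type here is known to lack A1, and the lowest shares, those of dendritic cells, were 12.4% and 8.84% after thinning, at median depths of 9088 and 11631 UMIs. Without thinning they were 25.7% and 27.2%, the opposite direction to the CPM, and combo, the higher, was the deeper library in this type. The shares of CD8 T and NK cells were above them in both libraries.

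RNA from neutrophils can enter other droplets, and S100a8, an abundant neutrophil message, traces it. S100a8 in NK cells was 257 CPM under lenvatinib and 3753 under combo, 0.438% and 2.98% of the level in neutrophils. Carried at that proportion, neutrophil RNA would bring 2.40 and 5.96 CPM of Bcl2a1b into NK cells, 2.41% and 2.48% of the Bcl2a1b level there. In CD8 T cells it would bring 1.56% and 0.581% of Bcl2a1b. In Mo/MΦ, with S100a8 at 1326 and 9939.6 CPM, it would bring 3.76% and 13.9%. In B cells, with S100a8 at 181 and 5050.0 CPM, it would bring 2.11% and 8.21% of Bcl2a1b. For Mcl1 it would bring 2.72% and 16.4% of the level in NK cells. The Mcl1 shares were 1.24% and 14.3% in B cells and 4.10% and 11.9% in Mo/MΦ. The mix of copies also differed between types: Bcl2a1a was 15.8% of the copies' UMIs in neutrophils under lenvatinib and 14.2% under combo, but 0.263% and 0.0394% in NK cells, where combo held 1 Bcl2a1a UMI of 2537. In CD8 T cells it was 0.611% and 0.236%, and in B cells 0.858% and 1.21%. In NK cells Bcl2a1a had 0.368 and 0.127 CPM, under the 0.552 and 1.16 that neutrophil RNA would bring. Under lenvatinib the 0.552 lies within the interval of the level (0.148 to 0.758). Under combo the 1.16 lies above it (upper end 0.707), so the S100a8 proportion did not hold for this copy there. Whether these few UMIs were the NK cells' own was not tested.

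The copies were also read within gated types split by a UMI of another gene. CD8 T cells with a UMI of Pdcd1, the receptor PD-1, were 13.2% under lenvatinib and 21.8% under combo, and had 315 and 474 CPM of the copies, against 163 and 337 CPM in cells without. The interval of the ratio between the libraries was 1.38 to 1.64 with Pdcd1 and 1.98 to 2.18 without. After thinning to 2000 UMIs the shares with Pdcd1 were 5.51% and 10.2%, against 0.203% and 0.512% in neutrophils, which should lack it. Cells with a UMI of the cell cycle genes Mki67 or Top2a were 36.6% and 17.4% at median depths of all CD8 T cells of 6881 and 5546 UMIs. After thinning they were 20.5% and 8.18%, against 7.11% and 3.73% in neutrophils, a type that mostly does not divide, at depths of 2516 and 4744 UMIs. The ratio of the copies between the libraries was 2.07 in cells with these genes and 2.03 in the rest.

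Among neutrophils, cells with a Ptgs2 UMI were 63.4% under lenvatinib and 47.8% under combo, and 62.6% and 36.9% after thinning. They had 1280.2 and 527 CPM of the copies, 4.85-fold and 4.23-fold more than neutrophils without Ptgs2, which had 264 and 125. Within both states the sum was lower under combo, with ratios of 0.412 (0.385 to 0.440) and 0.472 (0.412 to 0.541). In Mo/MΦ the cells with a UMI of the macrophage gene C1qa were 22.9% and 8.33%, or 18.9% and 5.14% after thinning, and the ratios were 0.422 (0.319 to 0.554) with it and 0.414 (0.366 to 0.468) without. The ratios within both myeloid splits were thus also below 1.

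**Figure D4:**
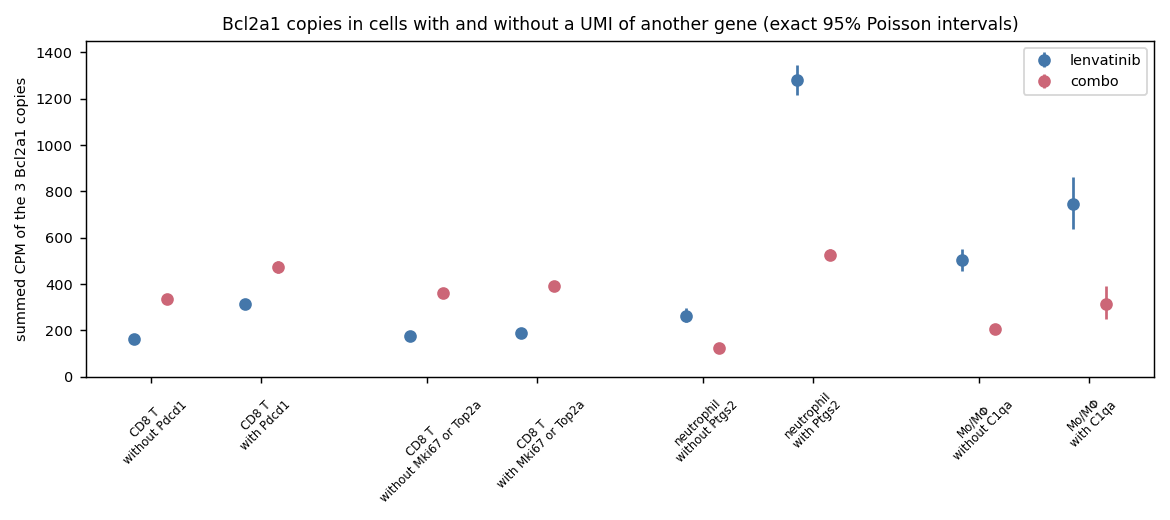
Summed CPM of the 3 Bcl2a1 copies in cells with and without a UMI of the named gene, under lenvatinib (blue) and combo (red), with exact 95% Poisson intervals. In every CD8 T state the combo point lies above the lenvatinib point, and in every neutrophil and Mo/MΦ state below it.

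Over the 16 values of types and libraries the genes most like Bcl2a1b were Junb (r = 0.875), Coq10b (0.838) and Klf6 (0.813), and those most like Bcl2a1d were Mapkapk3 (0.826), Klf6 (0.815) and March2 (0.790). The genes most like Bcl2a1a were Il13ra1 (0.919), Rasgrp4 (0.909) and Lrrc25 (0.905).

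The survival genes made a different mix of UMIs in each type. These are shares of counted messages, not of protein, and capture may differ between genes. Bcl2 was 54.4% of all survival-gene UMIs in CD8 T cells under lenvatinib and 45.6% under combo, while the Bcl2a1 copies were 16.4% and 26.7%. In NK cells Bcl2 was 47.4% and 44.1%, and the copies 15.8% and 27.9%. In Foxp3 T cells the copies were 45.6% and 42.6% and Bcl2 11.6% and 5.26%. In neutrophils Mcl1 was 66.0% and 82.7%, and the copies 29.5% and 13.9%. Mo/MΦ moved alike, with Mcl1 at 59.6% and 79.2%, as did dendritic cells, at 71.1% and 81.2%. The summed level of survival genes was 1114 CPM in CD8 T cells under lenvatinib and 1374 under combo, 885 and 1156 in NK cells, and 2702 and 1974 in neutrophils.

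**Figure D5:**
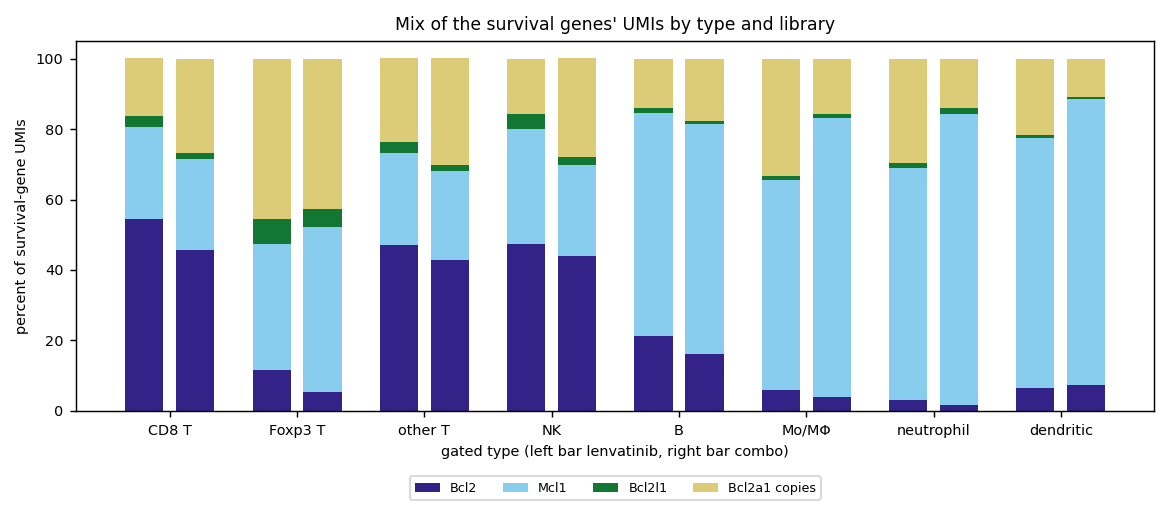
Percent of the survival-gene UMIs that came from Bcl2, Mcl1, Bcl2l1 and the Bcl2a1 copies in each gated type (left bar lenvatinib, right bar combo). The Bcl2a1 share is larger under combo in CD8 T, other T, NK and B cells and smaller in the other types.

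Bax and Bak1 encode the effectors that open the outer membrane. Bax (chr7:45461697-45466898, minus strand) ranged from 66.0 CPM in neutrophils to 144 in Mo/MΦ under lenvatinib, a 2.19-fold range, and from 40.2 in neutrophils to 145 in dendritic cells under combo, a 3.60-fold range. Before the median gene was subtracted Bax passed 1.5-fold between the libraries only in neutrophils, with 66.0 and 40.2 CPM (ratio 0.609, 0.505 to 0.737). With the subtraction the log2 ratio there went from -0.72 to -0.21. In B cells it went from 0.26 to 0.67, past 1.5-fold. The interval of the unsubtracted ratio in B cells included 1 (0.996 to 1.44). Bak1 (chr17:27019810-27029009, minus strand) ranged 2.59-fold under lenvatinib, from 26.1 CPM in B cells to 67.7 in Mo/MΦ, and 6.13-fold under combo, from 13.8 to 84.3 CPM in the same types. It was past 1.5-fold lower under combo in NK, CD8 T and other T cells. It had 55.5 and 32.4 CPM in NK cells (ratio 0.583, 0.507 to 0.669), 43.6 and 26.8 in CD8 T cells (ratio 0.614, 0.543 to 0.694) and 45.8 and 28.2 in other T cells (ratio 0.617, 0.532 to 0.713). With the median gene subtracted, NK cells stayed past 1.5-fold (log2 -0.65) and CD8 T and other T cells did not (-0.55 and -0.52). In Mo/MΦ Bak1 had 67.7 and 84.3 CPM, with an interval of the ratio from 0.963 to 1.62. Among CD8 T cells it was lower under combo in the cells with and without Pdcd1 (ratios 0.551 and 0.603). In neutrophils the ratio was 0.632, a log2 of -0.66 that became -0.16 after subtraction.

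Bcl2l11, the gene of BIM (chr2:128126038-128162547, plus strand), was highest in NK cells, with 252 CPM under lenvatinib and 229.5 under combo. Neutrophils followed under lenvatinib at 213 CPM, but had 115 under combo (ratio 0.539, 0.485 to 0.599). This was the only type past 1.5-fold, and its log2 ratio of -0.89 became -0.39 with the median gene subtracted. CD8 T cells had 146 and 108 CPM (ratio 0.740, 0.695 to 0.787), a log2 ratio of -0.44 that became -0.29 after subtraction. The ratio was 0.717 (0.670 to 0.767) in CD8 T cells without a Pdcd1 UMI. In those with one it was 1.15, with an interval that included 1 (0.967 to 1.38). BCL-2 is known to hold BIM in T cells, and the number of Bcl2 UMIs per Bcl2l11 UMI was 4.14 under lenvatinib and 5.79 under combo in CD8 T cells, 1.67 and 2.22 in NK cells, and 0.387 and 0.292 in neutrophils.

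Bbc3, the p53 target that encodes PUMA (chr7:16308393-16318205, plus strand), ranged from 16.2 CPM in neutrophils to 43.3 in NK cells under combo. It was higher under combo in dendritic cells, with 18.1 and 33.1 CPM (ratio 1.82, 1.27 to 2.65), and in other T cells, with 18.9 and 33.8 (ratio 1.79, 1.51 to 2.13). NK cells had 32.3 and 43.3 CPM (ratio 1.34, 1.17 to 1.53). In the other types the interval of its ratio included 1. Among these, the log2 ratio in Mo/MΦ went from 0.56 to 0.69, past 1.5-fold, with the median gene subtracted.

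The rest of the pathway was read from 2 further lists. Of 8 other family genes (Bcl2l2, Bok, Bid, Bad, Bik, Bmf, Hrk and Pmaip1), 3 reached the level filter in any type, in 17 pairs of gene and type, of which 1 was past 1.5-fold higher and 2 lower under combo. Over all genes and types 4.65% of pairs were past 1.5-fold higher and 19.4% lower. With the median gene subtracted 2 of the 17 were past higher and 1 lower. The BH3-only gene Pmaip1, which encodes NOXA, the partner of MCL-1 and A1, had 241 CPM in neutrophils under lenvatinib and 53.6 under combo (ratio 0.223, 0.198 to 0.251), and 169.7 and 106 in Mo/MΦ. Bad had 34.3 and 51.5 CPM in dendritic cells. Of 6 genes that act after the membrane is breached (Apaf1, Cycs, Casp9, Xiap, Diablo and Htra2), 5 were compared, in 32 pairs, of which 1 was past 1.5-fold higher and 12 lower. With the median gene subtracted 2 were past higher and 4 lower. The lower pairs included 2 of 4 in B cells, where 36.3% of all genes were past lower, and 2 of 3 in neutrophils, where 43.7% were. Xiap, which blocks caspases, made up 7 of the 12 before subtraction and 2 of the 4 after it. It had 65.5 and 39.4 CPM in CD8 T cells and 81.7 and 40.1 in B cells. Apaf1, the scaffold of the apoptosome, made up 4 before and 2 after, and had 37.0 and 23.2 CPM in NK cells.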

How the data were processed

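The files the authors deposited hold unnormalized UMI counts for each gene in each barcode of 2 libraries (10x 3′ v3 chemistry), with at least 500 UMIs per barcode. The paper's methods and the submitters' processing notes name Cell Ranger 5.0.1 and the matrix header names 6.0.1, with genome mm10. Depth was 98107503 UMIs under lenvatinib and 93583402 under combo. The clustering and cell typing of the paper (SCTransform, SingleR, TILPRED) were not repeated. The filter took out barcodes above 6000 genes or above 25% mitochondrial UMIs (308 and 376), and cells with a UMI of none (2535 and 1449) or several (2327 and 2667) of the 6 gate genes, or of both Cd8b1 and Foxp3 (65 and 16), were set aside. Scrublet (scanpy 1.11.5, 6% expected) called 4.46% and 2.76% of cells doublets, and these stayed in the main values.

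Counts were summed per type and library in Python 3.11.15. CPM have exact Poisson, ratios exact conditional binomial and shares Clopper-Pearson 95% intervals (scipy 1.17.1), which cover counting error only. Genes were compared at a mean of 20 CPM and 20 UMIs in all, and called at 1.5-fold. For shares, cells were thinned to 2000 UMIs, leaving out shallower cells. Alike genes are the 3 with the highest Pearson's r of log2(CPM + 1). Genes named beyond the members are the gates, markers, state genes, these 3 per member, the S100a8 tracer and examples of the fixed lists. Copies were aligned with Biopython 1.88, and all 10 GENCODE identifiers matched the matrices. The code was tested on simulated data. The members and lists were chosen with earlier results of these data known. Some genes of the fixed lists are not reported here.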

Additional observations from a re-analysis of the deposited data

Results flagged for a closer look

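The same gene differed in opposite directions between the libraries in different cell types. The log2 ratio of Bcl2a1b, combo over lenvatinib, was 1.27 in NK cells and -1.54 in Mo/MΦ. The log2 ratio of Bcl2a1d was 1.09 in CD8 T cells and -1.81 in neutrophils. With 1 library per treatment the difference between types was not tested.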

How the results depend on the processing

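No paired analysis was possible because there was 1 library per treatment, so no replicate could be left out or blocked. In 8 alternative settings each of the 27 pairs of gene and type past 1.5-fold kept its sign, and with a minimum of 50 CPM as a further setting, 9 in all, the number past 1.5-fold by type was within 1.5 times the main count in 58 of 72 values. In Foxp3 T cells the count went from 2 of 9 members to 1 of 8 with the highest-count gate (33.2% of all genes past). It went to 1 of 9 with CPM totals without mitochondrial, ribosomal protein and hemoglobin genes (37.3%) or with ratios centred on the median gene (34.9%). With a gate of 2 UMIs it was 4 of 9 (38.1%). In B cells it went from 0 of 6 to 1 of 7 with the strict cell filter (37.8% of genes) and with the highest-count gate (35.3%). It went to 1 of 6 with called doublets removed (38.0%) and to 1 of 8 with the totals without those genes (39.1%). Centred ratios gave 3 of 6 (20.3%) and the mean of single-cell CPM 2 of 8 (27.4%). In neutrophils it went from 7 of 9 to 4 of 9 with the highest-count gate (44.2% of genes) and with centred ratios (26.8%). In other T cells it went from 5 of 9 to 3 of 9 with centred ratios (8.65%). At a minimum of 50 CPM, where fewer members were compared, it was 2 of 6 (12.2%). The log2 ratio of the share of neutrophils with a Bcl2l11 UMI, negative after thinning, was 0.11 without it, where cells under combo were deeper. Foxp3 T cells under combo numbered 41, which limits their values. Bcl2a1b in Foxp3 T cells passed 1.5-fold in 3 of 8 settings, with log2 ratios of -0.64 to -0.37, and Bcl2 in Mo/MΦ ranged from -0.95 to -0.06.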
